A study of Caenorhabditis elegans with 12 samples.

Results

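Cytochrome *c* oxidase, complex IV of the respiratory chain, is assembled from subunits encoded by mitochondrial DNA (mtDNA) and subunits encoded in the nucleus. The 7 nuclear genes described here are *cox-4*, *cox-5A*, *cox-5B*, *cox-6A*, *cox-6B*, *cox-6C* and *cox-7C*, chosen by their WormBase names among the 46739 genes of the count table. All 7 had enough counts to be tested in every comparison. RNA was sequenced from whole L4 worms in 2 experiments with 3 libraries per group. The sample labels give growth at 20 °C on OP50 bacteria, whereas the paper's methods for RNA isolation and qRT-PCR name HT115. Experiment 1 compared wild-type N2 worms with *atfs-1(null)* worms, which lack the *atfs-1* open reading frame. Experiment 2 compared its own N2 worms with *atfs-1(et18)* worms, in which an amino acid substitution lies in the mitochondrial targeting sequence (MTS) of ATFS-1. No agent was given to any group, so both mutants were compared with wild type in the absence of an added mitochondrial stress. The titles of the experiment 2 samples read batch2, and they do not give the step at which the experiments were separate. Each mutant strain was measured in 1 experiment only, so strain and experiment cannot be told apart when the mutants are set beside each other.

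Complex IV takes electrons from cytochrome *c* and passes them to oxygen while it pumps protons across the inner membrane. The catalytic core, with its haem and copper centres, is made of 3 subunits that mtDNA encodes, and the nuclear subunits are translated in the cytosol, imported and arranged around that core. ATFS-1 is the transcription factor of the mitochondrial unfolded protein response (UPRmt). It is imported into healthy mitochondria and degraded there, and it acts in the nucleus when import is reduced. Knockdown of *cox-5B*, long known in worms as *cco-1*, is a widely used way to switch this response on.

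The 7 genes lie on 3 chromosomes of the WBcel235 build and all are protein coding. *cox-4* (WBGene00012354) lies on chromosome I from 13658171 to 13659128 on the minus strand, and the other members lie on the plus strand. Also on chromosome I are *cox-5B* (WBGene00000371), from 9788749 to 9789965, and *cox-7C* (WBGene00009161), from 9773170 to 9774012. Chromosome III holds *cox-5A* (WBGene00012553), from 12905491 to 12906611, *cox-6A* (WBGene00006519), from 5081726 to 5083007, and *cox-6B* (WBGene00022170), from 2786117 to 2786859. *cox-6C* (WBGene00017926) lies on chromosome IV from 126731 to 127636. Their exons cover 391 to 856 bases, against a median of 1268.5 bases for the tested genes of experiment 1, and 73.3% of those genes are longer than the longest member. *cox-6B* shares 6 exon bases with the complex I gene *nduc-2* on the same strand, and no other member shares exon bases with another gene.

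Total counts per library lay between 24090660 and 37050803, and the 7 genes together took 0.168% to 0.290% of them. In the libraries labelled *atfs-1(null)* the *atfs-1* gene had 19 to 27 counts, against 1104 to 1558 in their wild type. Replicate 3 of *atfs-1(null)* and replicate 2 of *atfs-1(et18)* stood apart from the others of their groups: a chi-square of the counts gave 115 to 147 per gene for pairs with one of them, against 10.1 to 37.4 for all other pairs of replicates. The same libraries had the highest summed level of the 6 yolk protein genes in their groups, 31287 and 21939 CPM (counts scaled to library size), against 11128 and 11531 for the other *atfs-1(null)* libraries and 3296 and 5388 for the other *atfs-1(et18)* libraries. The study describes the 3 replicates of each strain as biologically independent.

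In wild type all 7 nuclear subunits were among the most abundant transcripts. Levels are given in RPKM (reads per kilobase of exon, scaled to library size), computed from the counts with edgeR's TMM scaling within each experiment. In experiment 1 the mean level ran from 489 ± 26.1 RPKM (SD, n = 3) for *cox-5B* to 930 ± 78.6 RPKM for *cox-7C*. These levels placed the members at the 98.1st to 98.9th percentile of the 15620 genes tested there. The order from the top was *cox-7C*, *cox-5A*, *cox-4*, *cox-6C*, *cox-6B*, *cox-6A* and *cox-5B*. Neighbours in this order overlapped for *cox-7C* and *cox-5A*, for *cox-4* and *cox-6C*, and for *cox-6A* and *cox-5B*, and each of the other steps separated the libraries completely.

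In the wild type of experiment 2, *cox-5A* was highest with 752 ± 33.8 RPKM (SD, n = 3), followed by *cox-7C* with 691 ± 14.6 RPKM. *cox-6A* was lowest, with 416 ± 17.4 RPKM. *cox-7C* was the highest member in all 6 libraries of experiment 1, mutant and wild type, and *cox-5A* in all 6 libraries of experiment 2. Within any library the highest member exceeded the lowest by only 1.75-fold to 1.97-fold. The members were therefore present at similar levels per length in every library, with *cox-5B* and *cox-6A* at the bottom in all groups.

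The 2 wild types were not at the same level. When the wild type of experiment 2 was compared with that of experiment 1 in a fit of their own, all 7 members were lower, by 0.22 (*cox-5B*) to 0.46 (*cox-7C*) on the log2 scale (edgeR quasi-likelihood test, adjusted p from 0.00639 to 0.0436). In that comparison 21.2% of all tested genes were called lower. The count of members fell to 3 with scaling by library size alone, to 1 with the replicate number as a block, and to between 1 and 7 when 1 library was left out. Without replicate 3 of wild type in experiment 2, 1 member passed, and without its replicate 1 or 2, 3 members passed. The difference between worms of the same strain in the 2 experiments was thus up to 0.46. That is larger than any change of a member in *atfs-1(et18)* below and smaller than every change in *atfs-1(null)*.

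**Figure D1:**
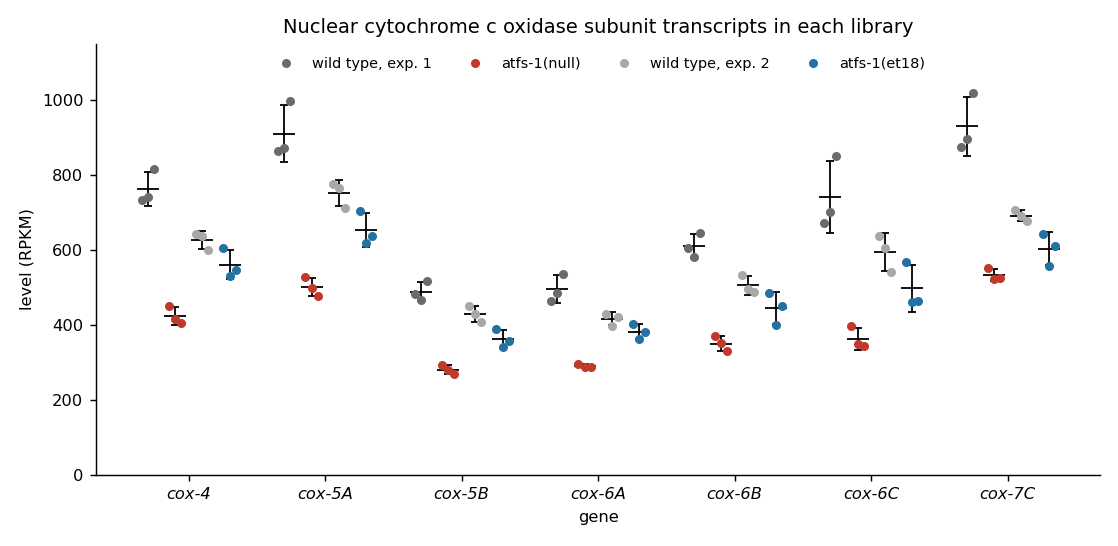
Level of each nuclear subunit gene in RPKM (linear axis from 0) in each of the 12 libraries, with 3 libraries per group and black marks for the mean and SD. Every *atfs-1(null)* library lies below every wild-type library of experiment 1 for all 7 genes, while the *atfs-1(et18)* libraries lie close to their wild type and overlap it for 3 genes. The experiments were scaled separately.

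In *atfs-1(null)* worms the transcripts of all 7 nuclear subunits fell to about the same extent. Log2 fold changes lay between -0.77 and -1.03 (median -0.80), which is 41.4% to 51.1% less transcript than in wild type. Standard errors were 0.088 to 0.12, and adjusted p-values were 0.000341 to 0.000496 (edgeR quasi-likelihood test, Benjamini-Hochberg over 15620 genes). Much of the transcriptome moved in this strain: 35.4% of the tested genes were called lower and 32.9% higher, the median gene changed by -0.04, and 26.3% of all genes fell at least as far as the member that fell least. The calls over all genes were 5134 higher and 5530 lower with TMM scaling, and 6244 higher and 4190 lower with library size alone.

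The largest nuclear subunits were lower in every mutant library. *cox-4*, the counterpart of mammalian subunit IV, had 733, 743 and 816 RPKM in the wild-type libraries and 451, 417 and 404 RPKM in *atfs-1(null)*. *cox-5A*, which encodes the matrix-facing subunit Va, had 863, 872 and 998 RPKM in wild type and 527, 500 and 478 RPKM in the mutant. *cox-5B*, which encodes the zinc-binding subunit Vb, had 482, 467 and 518 RPKM in wild type and 293, 280 and 268 RPKM in the mutant. For each of these genes the highest mutant library stayed below the lowest wild-type library. *cox-4* fell by 0.85 (SE 0.088), *cox-5A* by 0.86 (SE 0.093) and *cox-5B* by 0.80 (SE 0.088) on the log2 scale.

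The small subunits moved with them. *cox-6A*, a small membrane-spanning subunit, had 464, 486 and 537 RPKM in wild type and 297, 287 and 287 RPKM in *atfs-1(null)*. *cox-6B*, the subunit on the intermembrane-space side, had 606, 581 and 645 RPKM in wild type and 370, 351 and 330 RPKM in the mutant. *cox-7C*, another small membrane subunit, had 875, 895 and 1020 RPKM in wild type and 553, 523 and 524 RPKM in the mutant. Here too the groups did not overlap, and the mutant libraries were close together, most of all for *cox-6A* (SD 5.47 RPKM). These genes fell by 0.77 (SE 0.092), 0.80 (SE 0.090) and 0.80 (SE 0.094).

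*cox-6C*, the last of the small membrane subunits, fell furthest. Its level was 673, 701 and 851 RPKM in the wild-type libraries and 397, 349 and 343 RPKM in the mutant libraries. It fell by 1.03 (SE 0.12, 95% interval -1.32 to -0.74). It was also the most variable member between wild-type libraries, with an SD of 95.6 RPKM on a mean of 742 RPKM, so its interval includes the estimates for *cox-4*, *cox-5A*, *cox-5B*, *cox-6A*, *cox-6B* and *cox-7C*.

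All 7 members had every mutant library below every wild-type library, as did 39.7% of all genes tested. Without replicate 3 of *atfs-1(null)*, the library that stood apart, all 7 still passed, with log2 fold changes from -1.01 to -0.78. In bulk RNA from whole worms, fewer cells of a tissue and less RNA per cell cannot be told apart. The tissue lists moved in this strain as well: of 11 germline and oocyte markers 11 were called higher (summed level 3587 to 6500 CPM, against 597 to 1095 CPM in wild type), of 8 intestine markers 7 were lower (4537 to 5354 CPM, against 12404 to 15251 CPM), and of 10 body wall muscle markers 9 were lower (8954 to 11664 CPM, against 16947 to 17607 CPM). Of 8 neuron markers 7 were called lower (median log2 fold change -0.86; summed level 426 to 471 CPM, against 609 to 705 CPM), and of 8 hypodermis markers 5 were called lower (median -1.05; 1128 to 2193 CPM, against 2557 to 3654 CPM). Yolk genes, which are switched on in the adult intestine, were higher in 6 of 6 cases (11128 to 31287 CPM, against 696 to 2237 CPM), and 27 of the 28 tested major sperm protein genes were higher (596 to 1440 CPM, against 68.8 to 166 CPM). No marker in these lists was at 0 in all libraries, and their part in the fall of the members was not tested.

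**Figure D2:**
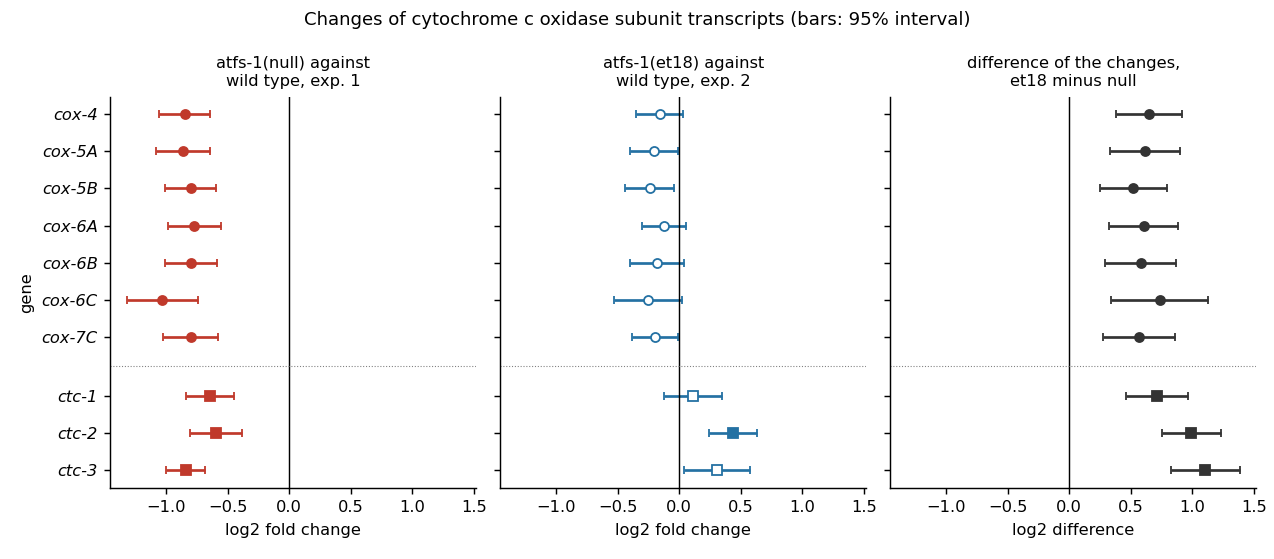
Log2 fold change of each nuclear subunit gene (circles) and of the mtDNA-encoded core subunits (squares) in *atfs-1(null)*, in *atfs-1(et18)* and as the difference of the changes, with 95% intervals and filled symbols for an adjusted p under 0.05. All 7 nuclear genes fell in *atfs-1(null)*, by 0.77 to 1.03, and none passed the test in *atfs-1(et18)*, where the core genes lie to the right of 0.

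In *atfs-1(et18)* worms, in which ATFS-1 is poorly imported and the UPRmt is active without stress, none of the 7 nuclear subunits rose. Log2 fold changes were all below 0, from -0.13 (*cox-6A*) to -0.26 (*cox-6C*), with a median of -0.20 against 0.07 for all genes tested. None passed the test (edgeR quasi-likelihood test, adjusted p from 0.0937 to 0.285), where 7.51% of all genes were called lower and 9.42% higher. At an unadjusted p under 0.05, 3 members were lower (*cox-5A*, *cox-5B* and *cox-7C*), as were 15.7% of all genes. DESeq2 also called 0 members. A log2 fold change below 0 was found for 44.3% of all genes.

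The 3 members at an unadjusted p under 0.05 had no overlap between the groups. *cox-5B* had 450, 429 and 407 RPKM in wild type and 390, 341 and 358 RPKM in *atfs-1(et18)*. *cox-5A* had 776, 766 and 713 RPKM in wild type and 703, 618 and 637 RPKM in the mutant. *cox-7C* had 706, 690 and 677 RPKM in wild type and 643, 557 and 611 RPKM in the mutant. The gap was narrow: the lowest wild-type library of *cox-5A* had 713 RPKM and the highest mutant library 703 RPKM. The log2 fold changes were -0.24 (SE 0.083), -0.20 (SE 0.081) and -0.20 (SE 0.079).

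*cox-6B* had 533, 496 and 487 RPKM in wild type and 485, 401 and 451 RPKM in the mutant, also without overlap, and the log2 fold change was -0.18 (SE 0.093). These 4 of 7 members had every mutant library below every wild-type library, as did 19.6% of all genes. For the remaining members the groups overlapped. *cox-4* had 641, 638 and 599 RPKM in wild type and 605, 531 and 547 RPKM in the mutant. *cox-6A* had 430, 397 and 422 RPKM in wild type and 403, 362 and 380 RPKM in the mutant. *cox-6C* had 639, 604 and 540 RPKM in wild type and 569, 460 and 464 RPKM in the mutant. In all 3, 1 mutant library reached into the range of the wild type.

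The 95% intervals of the 7 log2 fold changes ran from -0.53 at the lowest to 0.06 at the highest, so a rise of any member above 0.06 lay outside its interval. Without replicate 2 of *atfs-1(et18)*, the library that stood apart, still 0 members passed, with log2 fold changes from -0.20 to -0.087. Muscle markers moved in the same direction: 8 of 10 body wall muscle genes were called lower (summed level 12817 to 15029 CPM, against 18250 to 20568 CPM in wild type), and this count rested on single libraries. It was 0, 1 and 3 without replicate 1, 2 and 3 of wild type, and 5, 9 and 1 without replicate 1, 2 and 3 of *atfs-1(et18)*. Intestine markers were called higher in 1 of 8 cases (4 without replicate 2 of *atfs-1(et18)* and 0 without any other library) and lower in 0. Of 8 neuron markers 2 were called lower (506 to 627 CPM, against 603 to 659 CPM), a count that was 1 without replicate 1 and 0 without replicate 3 of *atfs-1(et18)*, and 0 without any 1 library of wild type. Of 8 hypodermis markers 0 were called (1109 to 2603 CPM, against 2385 to 3538 CPM), and 4 were lower with the replicate block. The part of these markers in the values of the members was not tested.

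The change of every member differed between the mutants. The fit of all 12 libraries gave a difference, the change in *atfs-1(et18)* minus the change in *atfs-1(null)*, of 0.52 (*cox-5B*) to 0.74 (*cox-6C*) on the log2 scale with a median of 0.60. All 7 passed (edgeR quasi-likelihood test, adjusted p from 0.00176 to 0.00707), in a test in which 26.1% of all genes were called higher. Without a low-count filter 5 of the 7 passed. The smallest lower bound of a 95% interval was 0.25. Mutant and experiment are the same split here, so the difference belongs to the pair of strain and experiment.

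The mtDNA-encoded core fell with the nuclear subunits in *atfs-1(null)*, while in *atfs-1(et18)* 1 of 3 core genes was called higher and 0 of 7 nuclear subunits passed in either direction. The core genes are *ctc-1*, which encodes subunit I with the oxygen-reducing site, *ctc-2*, which encodes subunit II with the copper centre that receives electrons from cytochrome *c*, and *ctc-3*, which encodes subunit III. They were found by position in mtDNA: *ctc-1* from 7827 to 9428, *ctc-2* from 9649 to 10348 and *ctc-3* from 5678 to 6449. In *atfs-1(null)* all 3 fell, *ctc-1* by 0.64, *ctc-2* by 0.59 and *ctc-3* by 0.84 on the log2 scale (adjusted p = 0.000648, 0.00127 and 0.000208, edgeR).

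In *atfs-1(et18)* 1 core gene, *ctc-2*, was called higher than in wild type. It had 1967, 1946 and 1849 RPKM in wild type and 2806, 2421 and 2585 RPKM in the mutant. *ctc-3* had 3129, 2950 and 2659 RPKM in wild type and 4073, 3286 and 3438 RPKM in the mutant. Neither gene's groups overlapped, whereas those of *ctc-1* did (3600 to 3995 RPKM in wild type and 3713 to 4499 RPKM in the mutant). *ctc-2* rose by 0.44 (SE 0.081, adjusted p = 0.0168, edgeR), while *ctc-3*, at 0.31 (adjusted p = 0.108), and *ctc-1*, at 0.11 (adjusted p = 0.456), did not pass. With the replicate number as a block, *ctc-3* passed as well (adjusted p = 0.0475). The call of *ctc-2* was kept in 1 of the 6 fits that left out a library, the one without replicate 2 of *atfs-1(et18)*. In the other 5 its adjusted p lay between 0.0611 and 0.0846 with log2 fold changes of 0.37 to 0.46. Whether the libraries were selected for polyadenylated RNA is not given in the sources used here, and mtDNA-encoded and nuclear transcripts may be captured differently.

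A ratio within a library does not depend on scaling between libraries. The log2 ratio of the median nuclear subunit to the median core subunit, in RPKM, was -2.84, -2.84 and -2.89 in the *atfs-1(et18)* libraries, and close to -2.29 in each wild-type library of experiment 2. In every library of experiment 2 the median genes were *cox-6C* and *ctc-3*, so the ratio there is that of 1 gene pair. *cox-6C* had the lowest log2 fold change of the members in this strain. *ctc-3* stood 4.88-fold to 4.92-fold above *cox-6C* in wild type and 7.14-fold to 7.41-fold above it in the mutant. The difference in the median ratio was -0.56 between means of -2.29 ± 0.0062 and -2.86 ± 0.030 (SD, n = 3 each; exact permutation test, two-sided, p = 0.1, the smallest that 3 against 3 can give), many times the spread between replicates. With the mean log2 RPKM of all genes in each set it was -0.48. In experiment 1 the ratio was -2.54, -2.58 and -2.26 in wild type and -2.53, -2.70 and -2.64 in *atfs-1(null)*. Those groups overlapped, with a difference of -0.16 (exact permutation test, two-sided, p = 0.3), which was -0.060 without replicate 3 of wild type. The wild types of the experiments differed in this ratio too, at -2.46 ± 0.18 in experiment 1 and -2.29 ± 0.0062 in experiment 2 (SD, n = 3 each), which was not tested.

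**Figure D3:**
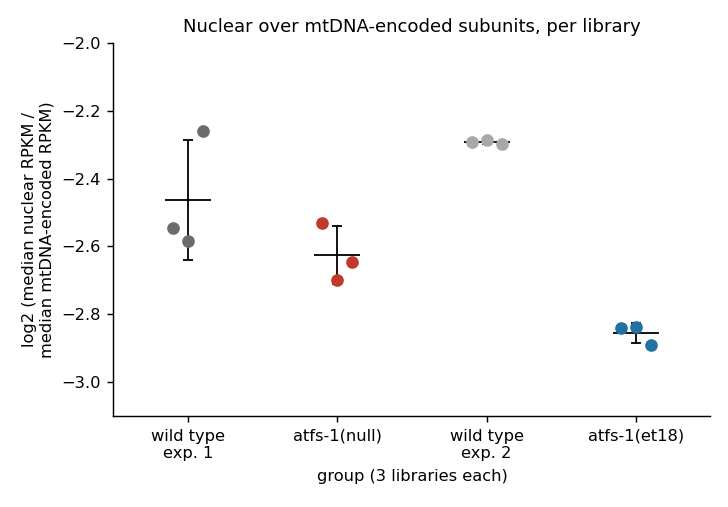
Log2 ratio of the median RPKM of the 7 nuclear subunits to the median RPKM of the 3 mtDNA-encoded core subunits, with 1 point per library and black marks for the mean and SD (the axis does not start at 0). The *atfs-1(et18)* libraries sit at -2.84 to -2.89, all below their wild type near -2.29, while *atfs-1(null)* and its wild type overlap. In every library of experiment 2 the median genes were *cox-6C* and *ctc-3*.

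Across the 12 libraries the members rose and fell together. Each pair of members, as deviations from the mean of its own wild type, had a Pearson correlation of 0.979 to 0.998 over the 12 libraries, which is a description of libraries that share a strain split and a scaling. The mean deviation of the members was -0.08, -0.29 and -0.22 log2 units in the *atfs-1(et18)* libraries, so replicate 1 of that strain was nearest to wild type. In wild type of experiment 1, replicate 3 was highest for every member, with a mean deviation of 0.12.

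The share of each member in the summed RPKM of the 7 genes shows whether the mixture itself changed. *cox-6C* made up 14.3%, 14.8% and 15.8% of the sum in the wild type of experiment 1 and 12.9% to 13.7% in the *atfs-1(null)* libraries. *cox-6A* made up 9.87%, 10.24% and 9.97% in wild type and 10.28%, 10.60% and 10.91% in the mutant. Each wild-type library was lower, but the highest of them, at 10.24%, was close to the lowest mutant library, at 10.28%. *cox-7C* made up 18.6%, 18.9% and 18.9% in wild type and 19.2%, 19.3% and 19.9% in the mutant. The share of *cox-6C* was thus lower, and those of *cox-6A* and *cox-7C* were higher, in every mutant library, by -1.75, 0.57 and 0.64 percentage points. For the other 4 members the shares overlapped.

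In experiment 2 only *cox-5B* had shares that did not overlap, with 10.6% to 10.8% in wild type and 10.3% to 10.4% in *atfs-1(et18)*. All of these share differences reached p = 0.1, the smallest possible (exact permutation test, two-sided, 3 against 3), and an adjusted p of 0.35 over the 14 tests, so none passed. The number of members without overlap depended on single libraries: it went from 3 to 5 in *atfs-1(null)* without replicate 1 of wild type, and from 1 to 3 in *atfs-1(et18)* without replicate 3 of wild type or replicate 2 of the mutant. The share of *cox-7C* lay between 18.6% and 19.9% in all libraries of experiment 1 and between 16.9% and 17.7% in all libraries of experiment 2, in mutants and wild types alike.

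**Figure D4:**
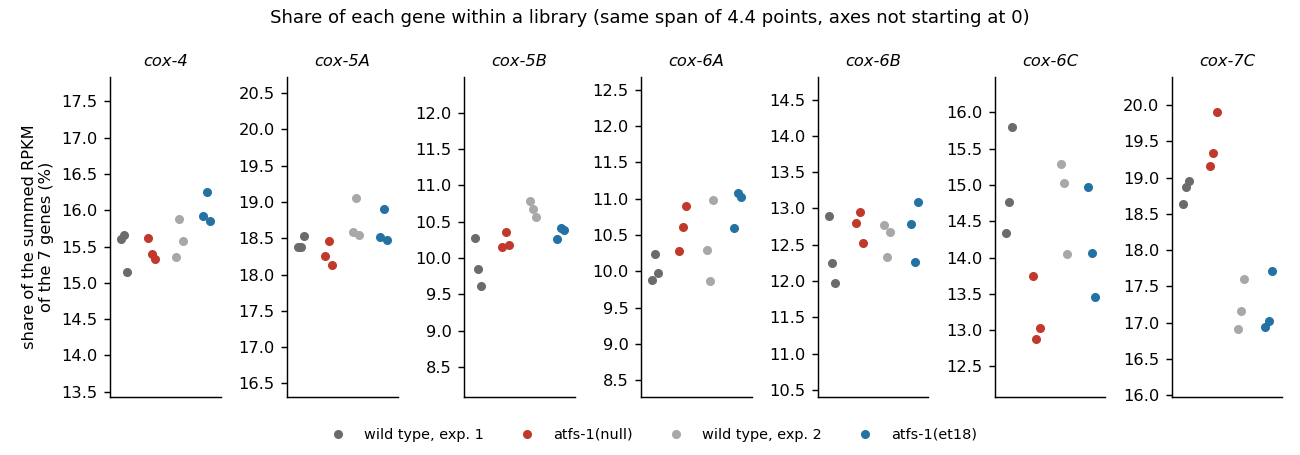
Share of each nuclear subunit in the summed RPKM of the 7 genes, in percent, with 1 point per library and the same span of 4.4 percentage points on each axis (axes do not start at 0). The *cox-6C* share is lower in *atfs-1(null)* (12.9% to 13.7%) than in its wild type (14.3% to 15.8%). The *cox-7C* share separates the experiments. It is also higher in *atfs-1(null)* (19.2% to 19.9%) than in its wild type (18.6% to 18.9%), while *atfs-1(et18)* and its wild type overlap.

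Assembly factors make haem A, deliver copper and insert the core subunits, and 15 of the 24 listed were found and tested. In *atfs-1(null)* 9 of 15 were called lower and 0 higher, with a median log2 fold change of -0.60 against -0.80 for the subunits. Of all genes tested 35.4% were called lower and 32.9% higher. The count of lower assembly factors ran from 8 to 12 when 1 library was left out. *cox-10*, the haem O synthase, fell by 1.11, *coa-4* by 1.01, *coa-3* by 0.92 and *coa-1* by 0.87.

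In *atfs-1(et18)* 5 of the 15 assembly factors were called higher and 0 lower, with a median of 0.39. Among all genes tested 9.42% were called higher and 7.51% lower, and 0 of the 7 subunits were called. *cox-15*, which makes haem A, rose by 0.84 (SE 0.074, adjusted p = 0.00138, edgeR). *sft-1*, the worm counterpart of human SURF1, rose by 0.78, *sco-1*, a copper chaperone of subunit II, by 0.57, and *cox-18*, an insertase for subunit II, by 0.54. The fifth, *coa-4*, rose by 0.53 and is named after its values were seen. This count moved between 1 and 8 when 1 library was left out, and it was 1 without replicate 3 of *atfs-1(et18)* or without replicate 1 or 3 of wild type, 2 without replicate 2 of wild type, and 8 without replicate 2 of *atfs-1(et18)*. *cox-15* passed in every one of these fits.

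The electron donor of the enzyme is cytochrome *c*, and its main gene *cyc-2.1* fell by 0.93 in *atfs-1(null)* (854 ± 73.8 CPM in wild type and 448 ± 32.8 CPM in the mutant; SD, n = 3 each; adjusted p = 0.000357, edgeR). In *atfs-1(et18)* its log2 fold change was 0.29 (adjusted p = 0.0861), on the other side of 0 from the complex IV subunits. It passed in 3 of 10 alternatives, among them the replicate block (adjusted p = 0.0422, edgeR) and library size alone (adjusted p = 0.0423, edgeR). Of 6 fits without 1 library it passed in 1, that without replicate 2 of *atfs-1(et18)* (adjusted p = 0.0253, edgeR). The second gene, *cyc-2.2*, was far lower in level, at 11.5 ± 4.38 CPM in wild type of experiment 1, and rose by 2.05 in *atfs-1(null)*.

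The fall of the complex IV subunits in *atfs-1(null)* was shared by the other complexes. Of the complex I genes 32 of 33 were called lower (median -0.82), of complex II 4 of 5 (median -0.64), of complex III 10 of 11 (median -0.91) and of the ATP synthase 12 of 14 (median -0.92), against the 7 of 7 and -0.80 of complex IV. Among all genes tested 35.4% were called lower and 32.9% higher. Each of these other lists had 1 gene that was called higher, and the list of complex IV subunits had none. Those genes were *nduf-2.2*, *sdha-2*, *ucr-2.3* and, named after its values were seen, *asb-1*, with log2 fold changes of 1.25, 1.49, 1.71 and 1.01. By their names, these lists include more than 1 gene for a subunit, such as *sdha-1* with *sdha-2* and *asb-1* with *asb-2*. The 7 complex IV genes include no such pair, and whether the contrast follows from the lists was not tested.

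In *atfs-1(et18)* the medians were 0.02 for complex I, -0.05 for complex II, -0.15 for complex III and -0.27 for the ATP synthase, beside -0.20 for the nuclear subunits of complex IV. The only calls among them were 2 ATP synthase genes that fell, *F58F12.1* by 0.32 and *atp-5* by 0.32 (adjusted p = 0.0452 and 0.0417, edgeR). Blocking on the replicate number, 5 ATP synthase genes were called lower. The count was 0 without replicate 3 of *atfs-1(et18)* or any 1 library of wild type, 1 without replicate 1 and 3 without replicate 2 of *atfs-1(et18)*. Without replicate 2 of *atfs-1(et18)*, 5 complex I genes were called higher. The ATP synthase and the nuclear subunits of complex IV thus had the lowest medians of these lists in this strain. When 1 library was left out, the median ran from -0.26 to -0.14 for these subunits and from -0.24 to -0.098 for complex III. Whether complexes differ was not tested.

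**Figure D5:**
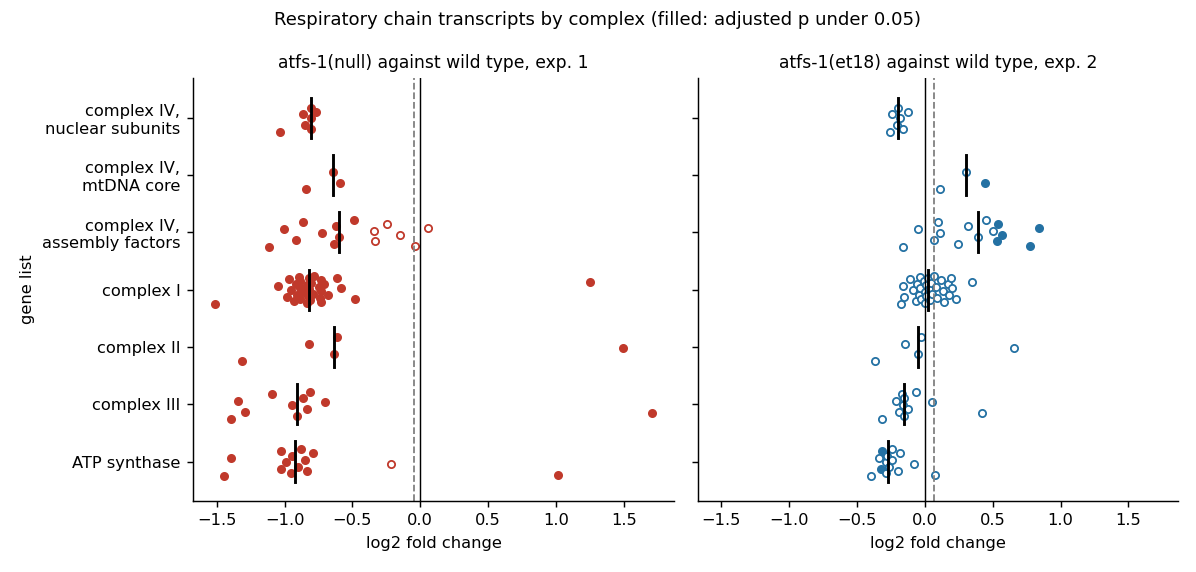
Log2 fold change of each tested gene by list in *atfs-1(null)* and *atfs-1(et18)*, with filled points for an adjusted p under 0.05, a black bar for the list's median and a dashed line for the median of all genes tested. In *atfs-1(null)* the medians of the lists lie between -0.60 and -0.92, and in *atfs-1(et18)* the nuclear subunits (median -0.20) lie left of 0 while the core (0.31) and the assembly factors (0.39) lie right of it.

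Among 15257 genes tested in both experiments, the mean pattern of the 7 members over the 12 libraries was followed most closely by *ril-1*, *R07E4.3*, *ndua-7*, *F44E5.1* and *ant-1.1* (Pearson correlation of 0.998 for each, given as a description of 12 libraries that share the strain split). *ndua-7* encodes a complex I subunit and *ant-1.1* an adenine nucleotide translocase of the inner membrane. In *atfs-1(null)* these 5 genes had log2 fold changes of -0.71 to -1.39, and in *atfs-1(et18)* of -0.18 to -0.32. The pattern was not limited to mitochondrial genes. The 20 closest genes outside the members also included the ribosomal protein genes *rps-2*, *rps-5* and *rpl-7A* and the V-ATPase genes *vha-2* and *vha-3*. Their correlations were 0.995 to 0.998, and they are named after their values were seen. The member *cox-6A* ranked 73rd among the 15257 genes.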

How the data were processed

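The authors made cDNA libraries, sequenced them as single reads of 50 bases, aligned them to WBcel235 and deposited raw read counts per gene with the exon length of each gene. The submitters' processing notes name STAR 2.5.3a, featureCounts, Subread 1.5.2 and edgeR 3.10.0, without their roles. How strand and multiply mapped reads were handled is not given in the sources used here. No column of other samples was in the table.

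For the tests, edgeR 4.0.16 (R 4.3.3) was run on the deposited counts with TMM scaling, the default low-count filter (minimum count 10, minimum total 15) and the quasi-likelihood test. P-values were adjusted over all tested genes (Benjamini-Hochberg), and genes under 0.05 were called. The reference for each mutant was N2 of the same experiment, and the difference of changes was fitted over all 12 libraries. CPM and RPKM were computed with the TMM factors of each experiment (0.896 to 0.929 in wild type and 1.05 to 1.11 in *atfs-1(null)*, and 0.975 to 1.02 in experiment 2). Shares and ratios within a library were compared with exact permutation tests (scipy 1.17.1, numpy 2.4.6, pandas 2.3.3, Python 3.11). The fits were tested on simulated counts. Alternatives were DESeq2 1.42.0, other scalings and filters, robust estimation, a gene-length offset (loess in limma 3.58.1), all libraries in one fit, the replicate number as a block, and each library left out.

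By the replicate numbers in the labels, the deviations of same-numbered libraries in experiment 2 had correlations of 0.52, 0.44 and 0.11. The last was weak, beside 0.08 for the same wild-type library with replicate 2 of the mutant. In experiment 1 the correlations were -0.06, 0.43 and 0.22.

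The 7 members and all lists were chosen with earlier results of these data known. All members and core genes are named. Of each other list, up to 4 genes per comparison are named, those called without overlap between groups that changed most, or else the 2 that changed most. Gene symbols came from a names table (43722 of 46739 genes), and the core genes were matched to RefSeq by position. Sequences, and the study's other assays, were not used here.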

Additional observations from a re-analysis of the deposited data

Results flagged for a closer look

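The change of each nuclear subunit differed between the mutants by a test of the difference itself, the change in *atfs-1(et18)* minus that in *atfs-1(null)* in one edgeR fit of all 12 libraries. On the log2 scale the difference was 0.65 for *cox-4*, 0.62 for *cox-5A*, 0.52 for *cox-5B*, 0.60 for *cox-6A*, 0.58 for *cox-6B*, 0.74 for *cox-6C* and 0.57 for *cox-7C*. Without a low-count filter 5 of the 7 passed. It is a difference of changes, not of levels in the mutants. The wild type of experiment 2 had log2 fold changes of -0.46 to -0.22 for the members against that of experiment 1. The mutants were measured in different experiments, each with its own wild type, so strain and experiment cannot be told apart.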

How the results depend on the processing

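In *atfs-1(null)* the fall of each member kept its direction and its call in all 10 alternatives and all 6 fits without 1 library (log2 fold changes from -1.16 to -0.52), and in *atfs-1(et18)* no member was called in any of them (-0.38 to -0.085, adjusted p from 0.0568 to 0.566). The highest value in *atfs-1(null)* came with library size alone, where the median of all genes moved from -0.04 to 0.21. With the replicate number as a block, 7 members were called in *atfs-1(null)*, 0 in *atfs-1(et18)* and 7 in the test of the difference. The block thus changed no call of a member in a mutant, while calls of other genes did change, as given above. An unadjusted threshold gave 3 members in *atfs-1(et18)*. The test of the difference gave 5 members without a low-count filter and 7 in every other alternative and every fit without 1 library. Between the wild types, 7 members were called, but 3 with library size alone, 1 with the replicate block and 1 to 7 without 1 library. The change of the ratio of nuclear to core subunits in *atfs-1(et18)* was -0.48 with means in place of medians and -0.57 to -0.54 without 1 library. The number of members whose shares did not overlap, a quantity added after the data were seen, was 3 in *atfs-1(null)* (3 to 5 without 1 library) and 1 in *atfs-1(et18)* (1 to 3). The causes of these movements were not tested. With 3 libraries per group, an exact test over libraries cannot go below 0.1.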

Other observations

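The nearest protein-coding genes on either side of the 7 members that do not overlap a member were 14. *nduc-2*, which overlaps *cox-6B*, is not among them. Of the 14, 13 were tested in *atfs-1(null)*, where 5 were called higher and 3 lower (median log2 fold change 0.36, edgeR), beside 32.9% higher and 35.4% lower among all genes tested. *sac-2*, which ends 3 bases from *cox-4* on the opposite strand, had a log2 fold change of 0.82 (adjusted p = 0.00206), while *cox-4* fell by 0.85. *F26E4.7*, 152 bases from *cox-7C* on the same strand, fell by 0.47 (adjusted p = 0.0359), against 0.80 for *cox-7C*. In *atfs-1(et18)* 14 neighbours were tested, of which 0 were called higher and 1 lower, beside 9.42% higher and 7.51% lower among all genes tested. The 1 lower was *tba-1*, next to *cox-5B*, and *tba-1* fell by 0.43. Neighbours were named after their values were seen.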
